A study of Mus musculus with 9 samples.

Results

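The comparison set sorted sensory neurons of TrkC:GFP mice, the only population here with low-threshold mechanoreceptors that adapt slowly (SA-LTMRs), against Rx3-/-;PV:tdT and Rx3+/+;PV:tdT neurons joined, the populations with those that adapt rapidly (RA-LTMRs). Genes were taken from the authors' table for this contrast where the RPKM (reads scaled by exon length and by library size) was 1 or more in the TrkC column or in the joined PV column, which held for 12877 of 23038 genes. A gene is called measured below where it reached that level, and a ratio without further words is the log2 of the TrkC:GFP RPKM over the joined PV:tdT RPKM. The series consists of 9 bulk RNA-seq libraries from neonatal dorsal root ganglia, 3 in each of 3 groups, and all 9 entered the comparison. The cells were dissociated, sorted by fluorescence, and their RNA was amplified before poly-A selected libraries were sequenced from single ends.

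The TrkC:GFP neurons came from mice with a bacterial artificial chromosome (BAC) that places GFP under the control of Ntrk3, the gene of the neurotrophin-3 receptor TrkC. Per the labels they held proprioceptors and SA-LTMRs, and were collected at postnatal days 6, 2 and 1 from pools of 4, 2 and 4 animals. The Rx3-/-;PV:tdT neurons carried a tdTomato reporter (Ai14 in the sample labels, Ai9 in the design text) switched on by Cre from the parvalbumin gene in animals that lacked functional Runx3 (Rx3). Proprioceptors do not survive in such mutants, and the labels give these cells as RA-LTMRs, collected at days 3, 0 and 0 from 1, 1 and 4 animals. The Rx3+/+;PV:tdT neurons carried the same Cre and reporter in animals wild type for Runx3, held proprioceptors and RA-LTMRs, and were collected at days 6, 4 and 3 from 4, 3 and 3 animals. All mice were on a mixed C57/Sv129 background, and both sexes were used. The reporter gene, the transgene and the group changed together in this contrast, so a difference that comes with the BAC line or with the PV:Cre line cannot be told apart from a difference between SA-LTMRs and RA-LTMRs. Mean age was 3 days in TrkC:GFP and 2.67 days in the 6 PV:tdT samples, with 1 day in Rx3-/-;PV:tdT and 4.33 days in Rx3+/+;PV:tdT. The 2 PV:tdT groups are called mutant and wild-type PV:tdT below, for their Runx3 genotype. Proprioceptors were sought in both TrkC:GFP and Rx3+/+;PV:tdT, and so the joined PV:tdT side mixes libraries with and without them.

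As background, proprioceptors innervate muscle spindles and tendon organs, and low-threshold mechanoreceptors report light touch from the skin. SA-LTMRs fire throughout a sustained indentation and end on Merkel cells. RA-LTMRs fire at its onset and offset, end in Meissner and Pacinian corpuscles and around hairs, and depend in development on the GDNF receptor Ret and on the transcription factor Maf. Ntrk3 and Runx3 are needed for proprioceptors, and parvalbumin marks proprioceptors and some LTMRs. In bulk samples, fewer cells of a type and less RNA per cell cannot be told apart.

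Reads per library were recovered from the deposited RPKM values for 12762 of the 12877 genes and for all genes named below with values per library. Library totals were 12225112, 10536972 and 7779765 reads for TrkC:GFP, 12847709, 12171315 and 4510352 for mutant PV:tdT and 13737224, 12150764 and 11567681 for wild-type PV:tdT. Within a group the libraries are given from deepest to shallowest, and they cannot be tied to an age or to a replicate number. Runx3, the gene mutated in one group, stood at 32.1, 34.1 and 35.0 RPKM in the TrkC:GFP libraries, against 12.5, 16.6 and 11.3 RPKM in the mutant PV:tdT libraries and 34.6, 30.2 and 26.2 RPKM in the wild-type PV:tdT libraries. Every mutant PV:tdT library was below every other, but Runx3 reads were not absent there, and the labels do not say which exons the mutant allele lacks. Markers of other cell types were present in every group. The summed RPKM of 17 glial genes spanned 321 to 651 in TrkC:GFP, 640 to 763 in mutant PV:tdT and 350 to 502 in wild-type PV:tdT. For 21 genes of nociceptive, itch, cold and C-fibre neurons the sums spanned 76.8 to 145 in TrkC:GFP, 282 to 485 in mutant PV:tdT and 114 to 145 in wild-type PV:tdT, and 2, 6 and 1 of the 21 had no reads in those groups. For 15 kidney and adrenal genes they spanned 3.24 to 4.11 in TrkC:GFP, 2.76 to 65.2 in mutant PV:tdT and 2.82 to 2.97 in wild-type PV:tdT, and the renin gene Ren2 was at 32.5, 45.5 and 0 RPKM in the mutant PV:tdT libraries. For 10 fibroblast genes the sums were 9.76 to 39.1 in TrkC:GFP, 50.7 to 96.8 in mutant PV:tdT and 15.8 to 35.0 in wild-type PV:tdT. The part of such cells in the results was not tested. Without the 2 deeper mutant PV:tdT libraries, which carried the kidney reads, all 93 genes called below kept their direction. TrkC:GFP lay outside both PV:tdT group values in all 93, so the wild-type PV:tdT libraries left in already gave that direction. Nothing about such cells is read from it.

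A gene was called where the adjusted p in the authors' deposited table (edgeR, Benjamini-Hochberg) was under 0.05. In counts over gene lists below, a gene rose or fell, or was higher or lower, only where it was called in that direction. Members that were not called can still differ between the groups. Without the limit on RPKM, 105 of 23038 genes were called (0.456%). Of the 12877 genes of RPKM 1 or more, 93 were called, which is 0.722%, and 1038 had an unadjusted p under 0.05. In TrkC:GFP, 33 genes were higher (0.256%) and 60 were lower (0.466%). The median log2 RPKM ratio of TrkC:GFP over the joined PV:tdT groups was 1.65 for the higher genes and -3.14 for the lower genes, beside 0.07 over all 12877 genes, and 90% of all genes lay between -0.72 and 0.84. An RPKM 2-fold or more higher in TrkC:GFP was reached by 417 genes, and 419 genes were 2-fold or more lower. The libraries were collected separately, from pools that differ in age and number of animals. The labels do not say whether any shared a litter or a sorting day.

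**Figure D1:**
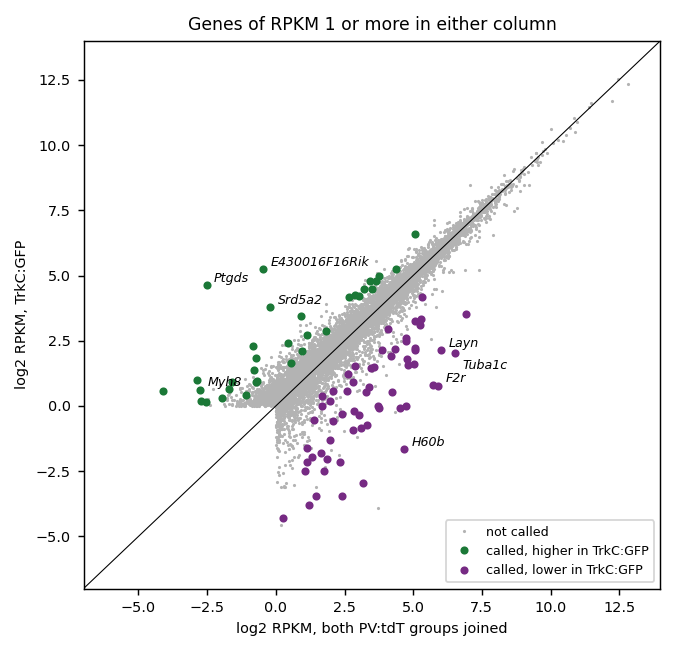
Each point is 1 of 12877 genes: log2 RPKM in both PV:tdT groups joined (x axis) against log2 RPKM in TrkC:GFP (y axis), with the line of equal values. The 33 called genes above the line include E430016F16Rik, Srd5a2 and Myh8, and the 60 below it include Tuba1c, F2r, Layn and H60b.

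The markers given for this contrast are Myh8 and Srd5a2 on the TrkC:GFP side and F2r and Layn on the PV:tdT side. All 4 were called in the direction given, but they were given for this same contrast, so nothing is read from that. The promoters of the 4 genes, from 250 bases before to 50 bases after the annotated start, are printed. Runx3 is mutated in 1 of the joined PV:tdT groups, and its family binds the core TGTGGT. Capitals mark that core, or its reverse complement ACCACA, wherever it was found. The sequences are RefSeq's on GRCm38.p6, for Myh8 at chr11:67276874-67277173 on the plus strand, Srd5a2 at chr17:74047811-74048110 on the minus strand, F2r at chr13:95618417-95618716 on the minus strand and Layn at chr9:51077045-51077344 on the minus strand, each written 5′ to 3′ on the gene's strand.
Myh8: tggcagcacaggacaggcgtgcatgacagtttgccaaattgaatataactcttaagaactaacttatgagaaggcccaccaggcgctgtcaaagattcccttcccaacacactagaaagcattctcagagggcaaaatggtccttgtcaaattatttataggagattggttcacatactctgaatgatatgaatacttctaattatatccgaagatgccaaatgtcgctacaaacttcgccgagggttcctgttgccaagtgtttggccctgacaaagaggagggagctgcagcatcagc
Srd5a2: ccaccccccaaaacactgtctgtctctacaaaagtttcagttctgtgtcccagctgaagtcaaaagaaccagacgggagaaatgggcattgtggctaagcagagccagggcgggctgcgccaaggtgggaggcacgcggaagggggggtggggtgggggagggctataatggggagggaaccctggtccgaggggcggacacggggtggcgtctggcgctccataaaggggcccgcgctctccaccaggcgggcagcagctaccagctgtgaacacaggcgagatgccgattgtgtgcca
F2r: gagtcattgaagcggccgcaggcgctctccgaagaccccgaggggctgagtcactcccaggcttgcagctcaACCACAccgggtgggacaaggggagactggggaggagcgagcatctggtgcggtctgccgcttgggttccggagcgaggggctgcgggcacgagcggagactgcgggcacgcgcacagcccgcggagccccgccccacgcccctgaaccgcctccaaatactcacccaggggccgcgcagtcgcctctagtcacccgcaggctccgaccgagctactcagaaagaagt
Layn: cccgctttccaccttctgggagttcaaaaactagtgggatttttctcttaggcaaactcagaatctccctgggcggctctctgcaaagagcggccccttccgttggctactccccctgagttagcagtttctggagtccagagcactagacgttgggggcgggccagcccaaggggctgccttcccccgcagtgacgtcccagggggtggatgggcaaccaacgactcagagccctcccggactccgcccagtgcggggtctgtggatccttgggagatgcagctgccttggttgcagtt
F2r had 1 match and the other 3 promoters none in this window. Of the 9785 promoters of genes of RPKM 1 or more found in the RefSeq table, 11.6% held the core on either strand. Among called genes the share was 16% (4 of 25) for those higher in TrkC:GFP and 15.2% (7 of 46) for those lower. The 7 were F2r, Meis1, Ntrk2, Pde1c, Gpr39, Me3 and Fam169b. A match is a run of letters and not a shown binding site.

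Myh8 (chr11:67277124-67308634, gene ID 17885), which encodes the perinatal myosin heavy chain of skeletal muscle, was at 1.04, 2.44 and 1.09 RPKM in the TrkC:GFP libraries, against 0.126, 0.0550 and 0.106 RPKM in the mutant PV:tdT libraries and 0.188, 0.102 and 0.248 RPKM in the wild-type PV:tdT libraries. All 3 TrkC:GFP libraries lay above all 6 others, with 89 to 269 reads each in TrkC:GFP, 5 to 17 reads in mutant PV:tdT and 13 to 30 reads in wild-type PV:tdT. The log2 RPKM ratio was 3.38, with an adjusted p of 1.1e-09 in the authors' deposited table (edgeR). Of 14 muscle genes, Myh8 alone had an RPKM of 1 or more, and of the 14 sarcomeric and other myosin heavy chains, the 4 others above that level, Myh7b, Myh9, Myh10 and Myh14, had log2 ratios between -0.56 and 0.04 and were not called. The 14 muscle genes summed to 2.39 to 4.12 RPKM in TrkC:GFP, 0.813 to 1.41 in mutant PV:tdT and 0.895 to 1.22 in wild-type PV:tdT, Myh8 included.

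Srd5a2 (chr17:74014891-74047860, gene ID 94224), the steroid 5-alpha-reductase that turns testosterone into dihydrotestosterone, was at 15.5, 8.33 and 17.2 RPKM in the TrkC:GFP libraries, against 0.638, 2.02 and 1.04 RPKM in the mutant PV:tdT libraries and 0, 0.385 and 0.405 RPKM in the wild-type PV:tdT libraries. The groups did not overlap, and within the PV:tdT groups the wild-type PV:tdT libraries were the lower. Its log2 RPKM ratio was 3.99 (adjusted p = 8.8e-08, the authors' deposited table, edgeR). Among 12 measured genes of steroid and androgen metabolism, 3 were called higher and none was called lower, and the list's median ratio was 0.44. The others that rose were Sult2b1, a sulfotransferase of cholesterol and other sterols, with 1.14 RPKM in TrkC:GFP, against 0.0894 in mutant PV:tdT and 0.217 in wild-type PV:tdT, and the oestrogen receptor Esr1, with 1.23 RPKM in TrkC:GFP, against 0.144 in mutant PV:tdT and 0.375 in wild-type PV:tdT. The related reductases Srd5a1 (10.1 against 10.6 and 10.7 RPKM in TrkC:GFP, mutant PV:tdT and wild-type PV:tdT) and Srd5a3 (6.10 against 4.33 and 4.07 RPKM) were not called. Both sexes were pooled in unknown proportion, and of 4 Y-linked genes and Xist, Eif2s3y, a subunit of a translation initiation factor, was called, with 18, 37.1 and 40.5 RPKM in the TrkC:GFP libraries, against 10.5, 11.1 and 15.2 RPKM in the mutant PV:tdT libraries and 14.1, 14.7 and 14.4 RPKM in the wild-type PV:tdT libraries. The other Y-linked genes, Ddx3y, Kdm5d and Uty, had ratios of 0.68, 0.69 and 0.36 and Xist -0.94, none of them called.

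F2r (chr13:95601780-95618466, gene ID 14062) encodes the thrombin receptor PAR1, a G protein-coupled receptor activated by cleavage. It was at 1.89, 1.76 and 1.40 RPKM in the TrkC:GFP libraries, against 97.6, 45.4 and 168 RPKM in the mutant PV:tdT libraries and 25.3, 6.27 and 18.4 RPKM in the wild-type PV:tdT libraries. Every TrkC:GFP library lay below every PV:tdT library, and the mutant PV:tdT libraries lay above the wild-type PV:tdT libraries. The log2 RPKM ratio was -5.14 (adjusted p = 4.9e-06, the authors' deposited table, edgeR), and -5.75 without the 2 deeper mutant PV:tdT libraries. F2rl2, which encodes PAR3, moved the same way, with 1.26, 1.08 and 0.522 RPKM in the TrkC:GFP libraries, against 24.0, 18.3 and 26.9 RPKM in the mutant PV:tdT libraries and 4.17, 2.34 and 3.72 RPKM in the wild-type PV:tdT libraries and a ratio of -3.74. These were 2 of 4 measured genes of the thrombin and protease-activated receptor list, and the other 2, Serpine2 and Tfpi, had ratios of 0.02 and -0.67 and were not called.

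Layn (chr9:51055023-51077209, gene ID 244864) encodes layilin, a membrane receptor for hyaluronan with a C-type lectin domain. It was at 5.36, 4.09 and 3.60 RPKM in the TrkC:GFP libraries, against 90.7, 113 and 119 RPKM in the mutant PV:tdT libraries and 25.4, 13.5 and 26.9 RPKM in the wild-type PV:tdT libraries. The groups were again in 3 separate tiers, with TrkC:GFP lowest. The ratio was -3.88 (adjusted p = 7.1e-06, the authors' deposited table, edgeR). Chodl, for chondrolectin, a related C-type lectin, had the same order of groups, with 3.28, 2.40 and 3.04 RPKM in the TrkC:GFP libraries, against 34.9, 50.5 and 50.1 RPKM in the mutant PV:tdT libraries and 14.3, 6.28 and 10.8 RPKM in the wild-type PV:tdT libraries and a ratio of -3.24.

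**Figure D2:**
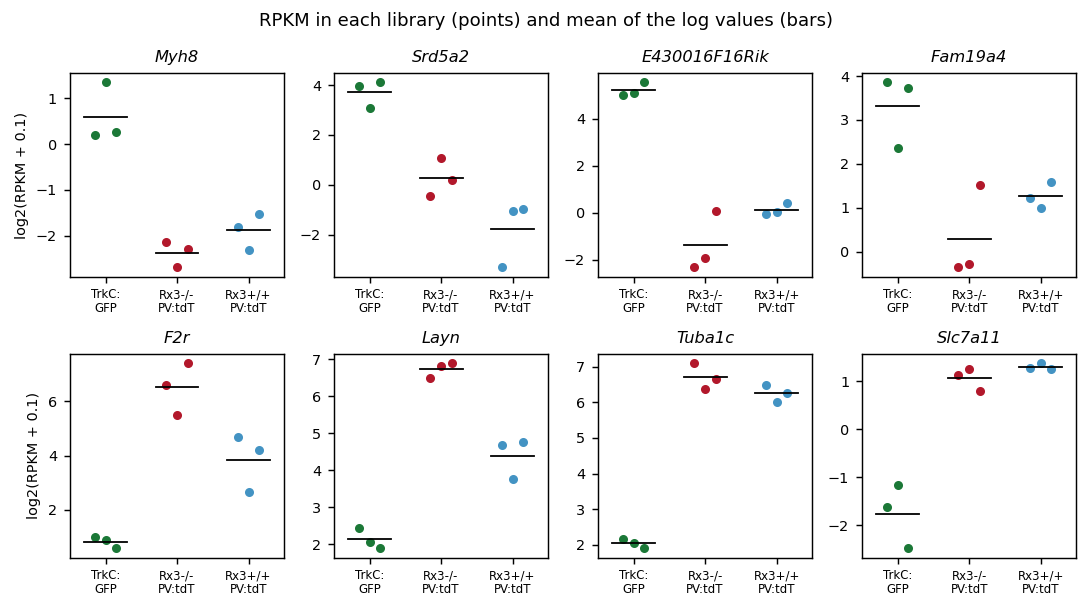
log2(RPKM + 0.1) of 8 called genes in each library (points) with the mean of the log values (bars), by group. In the upper row the 3 TrkC:GFP libraries lie above the PV:tdT libraries, and in the lower row they lie below, with F2r and Layn higher in Rx3-/-;PV:tdT than in Rx3+/+;PV:tdT and Slc7a11 about level between them.

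Among the 33 higher genes, median group RPKM was 5.39 in TrkC:GFP, 1.12 in mutant PV:tdT and 1.03 in wild-type PV:tdT, so the PV:tdT medians stood close together. In 32 of the 33, all TrkC:GFP libraries were above all PV:tdT libraries, which held for 4.65% of the 12762 genes with recovered reads. The genes were called from these same libraries, so nothing is read from that difference in share, here or for the lower genes. The TrkC:GFP library of middle depth was the lowest of the 3 for 19 of the 33 (57.6%), against 41.2% of all genes. The exception was Kit, the stem cell factor receptor, with 7.91, 2.05 and 9.73 RPKM in the TrkC:GFP libraries, against 2.42, 1.82 and 1.49 RPKM in the mutant PV:tdT libraries and 3.11, 1.82 and 2.29 RPKM in the wild-type PV:tdT libraries. The smallest adjusted p in the authors' deposited table (edgeR) belonged to E430016F16Rik, a long noncoding RNA gene, at 7.6e-27. It was at 32.0, 34.2 and 47.0 RPKM in the TrkC:GFP libraries, against 0.0976, 0.165 and 0.945 RPKM in the mutant PV:tdT libraries and 0.858, 0.929 and 1.24 RPKM in the wild-type PV:tdT libraries, a ratio of 5.69 on the log2 scale.

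E430016F16Rik lies at chr7:78581066-78718220 on the minus strand in the RefSeq table. Its lower coordinate is 32 bases above the upper one of Ntrk3 (chr7:78179986-78581034), the gene whose BAC drives GFP in these mice. On the minus strand that gap is upstream of Ntrk3 and downstream of E430016F16Rik. In the GENCODE M21 annotation Ntrk3 itself spans chr7:78175959-78738012 on the minus strand. It so covers the whole of E430016F16Rik, and the labels do not say how reads there were assigned. Of the 5 other genes of RPKM 1 or more within 1 Mb of Ntrk3, it was the 1 called, where 0.722% of all 12877 genes were. Reads of the transgene and of the chromosomal locus cannot be told apart. Around Pvalb, the gene that carries Cre in the PV:tdT lines (chr15:78191112-78206400), 3 of 21 such genes were called. One of them, Ift27 (chr15:78159460-78174081), encodes an intraflagellar transport protein. It lies 17031 bases below Pvalb in coordinates, which is downstream of Pvalb, as both genes are on the minus strand. It was at 4.42, 4.94 and 4.02 RPKM in the TrkC:GFP libraries, against 10.7, 6.18 and 6.38 RPKM in the mutant PV:tdT libraries and 29.8, 33.8 and 34.7 RPKM in the wild-type PV:tdT libraries, so that wild-type PV:tdT stood highest and mutant PV:tdT lay between it and TrkC:GFP. The other 2 were Elfn2, lower in TrkC:GFP at 0.681 against 3.57 and 1.61 RPKM, and 1700088E04Rik, higher at 22.6 against 9.70 and 8.79 RPKM, each in TrkC:GFP, mutant PV:tdT and wild-type PV:tdT. None of the 28 such genes around Runx3 was called. The windows hold few genes, and the called genes around Pvalb share neither a direction nor an order of groups, so nothing is read from these counts.

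Of 13 measured markers of nociceptive, itch, cold and C-fibre neurons, 2 rose and Calca fell, with a list median of -0.27. The 2 were genes of touch-sensitive C fibres. Fam19a4 (Tafa4), a secreted protein known from those fibres, was at 14.4, 5.0 and 13.1 RPKM in the TrkC:GFP libraries, against 0.678, 0.715 and 2.74 RPKM in the mutant PV:tdT libraries and 2.24, 1.89 and 2.89 RPKM in the wild-type PV:tdT libraries, with a ratio of 2.51 (adjusted p = 9.0e-05, the authors' deposited table, edgeR). Slc17a8, the vesicular glutamate transporter VGLUT3, also known from them, was at 2.41, 1.13 and 2.13 RPKM in the TrkC:GFP libraries, against 1.04, 0.348 and 0.376 RPKM in the mutant PV:tdT libraries and 0.617, 0.558 and 0.587 RPKM in the wild-type PV:tdT libraries, with a ratio of 1.65 (adjusted p = 0.034, edgeR, the authors' deposited table). Each TrkC:GFP library exceeded each PV:tdT library for both genes. Slc17a8 was the 1 of 36 measured synaptic vesicle release genes to be called. Th, another gene of that neuron class, was at 0.257 against 2.94 and 0.584 RPKM in TrkC:GFP, mutant PV:tdT and wild-type PV:tdT and was not called. Crhr2, a receptor of urocortins, stood at 1.58 against 0.158 and 0.461 RPKM and was the 1 of 46 measured G protein-coupled receptors of the list to be called higher. The largest ratio of that list was 2.80, in a gene that was not called. The orphan receptor gene Gpr50, a relative of the melatonin receptors that was not on the list, had 1.45, 0.263 and 2.57 RPKM in TrkC:GFP and no reads in any PV:tdT library. Its 73 pooled TrkC:GFP reads were 53.4-fold above a floor of 3 reads over the PV:tdT libraries, scaled by library size. That value leaves out the spread between the TrkC:GFP libraries.

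Adhesion and patterning genes were also present. The cadherins Cdh4 (R-cadherin), at 7.36 against 2.94 and 4.12 RPKM in TrkC:GFP, mutant PV:tdT and wild-type PV:tdT, and Fat4, at 3.12 against 1.22 and 1.71 RPKM, were called higher. Of the 31 measured cadherins and protocadherins none was called lower. Elmo1, which works with Dock proteins in Rac activation, had the smallest ratio of the 33 higher genes, 0.87, with 38.5, 42.2 and 34.0 RPKM in the TrkC:GFP libraries, against 20.3, 18.8 and 25.1 RPKM in the mutant PV:tdT libraries and 19.9, 19.5 and 21.8 RPKM in the wild-type PV:tdT libraries. Of 23 measured Hox genes, Hoxc5 rose, with 1.65, 2.57 and 6.31 RPKM in the TrkC:GFP libraries, against 0.228, 0.451 and 0.244 RPKM in the mutant PV:tdT libraries and 0.720, 0.754 and 1.01 RPKM in the wild-type PV:tdT libraries, and Hoxb8 fell, with 0.619, 1.11 and 0.486 RPKM in the TrkC:GFP libraries, against 19.4, 12.7 and 10.7 RPKM in the mutant PV:tdT libraries and 2.48, 1.34 and 2.19 RPKM in the wild-type PV:tdT libraries. Hoxc5 reached a log2 ratio of 2.55, and without the shallowest TrkC:GFP library 1.82. The fatty acid transporter Slc27a6 rose, at 5.39 against 1.12 and 1.62 RPKM. The ribosomal protein genes with many near-identical copies in the genome, Rpl3 (18.1 against 5.99 and 6.59 RPKM) and Rps3a (96.3 against 41.1 and 26.7 RPKM), and the histone gene Hist1h4a (15 reads in TrkC:GFP and none in the PV:tdT libraries) were called higher too, but reads of such genes could have been split among copies and their values are uncertain.

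A single library decided some values. Ptgds, prostaglandin D synthase, had the largest ratio of the called genes, 7.15, but stood at 0.610, 71.4 and 1.60 RPKM in the TrkC:GFP libraries, against 0, 0 and 0 RPKM in the mutant PV:tdT libraries and 0.271, 0 and 0 RPKM in the wild-type PV:tdT libraries, and the ratio was 2.82 without the TrkC:GFP library of middle depth. Rmst, a long noncoding RNA, was at 1.19, 0.691 and 4.02 RPKM in the TrkC:GFP libraries, against 0, 0.0630 and 0.255 in mutant PV:tdT and 0.153, 0.0947 and 0.133 in wild-type PV:tdT, and its ratio of 3.86 became 2.81 without the shallowest TrkC:GFP library. Without that library the ratio of Gpr50, which rests on the 1 read added per library, was 3.98 in place of 4.69, that of 1700123O21Rik 2.18 in place of 3.12 and that of F630111L10Rik 1.43 in place of 2.17. Spata21 completes the genes named by rule, with 1.11 RPKM in TrkC:GFP, against 0.123 in mutant PV:tdT and 0.220 in wild-type PV:tdT. In all, the ratio of 17 of the 93 called genes moved by more than 1.5-fold when 1 library was left out, and none changed direction. The genes were called from these same libraries, most of them without overlap between TrkC:GFP and PV:tdT, so nothing is read from the kept direction.

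The 60 lower genes differed from the higher ones in how the PV:tdT groups stood to each other. Median group RPKM was 1.37 in TrkC:GFP, 15 in mutant PV:tdT and 3.86 in wild-type PV:tdT. All 33 higher genes were above both PV:tdT group values (36.5% of all genes were) and all 60 lower genes below both (15.9% of all genes were). A gene 2-fold above the mean of the PV:tdT groups must lie above both, as all higher genes but Elmo1 and Lrrc16a were. A gene 2-fold below that mean need not lie below both, and 114 of the 419 such genes lay between the groups. The genes were called from these same libraries, so nothing is read from the counts above or below both. In 56 of the 60 genes mutant PV:tdT was above wild-type PV:tdT. Over all 12877 genes TrkC:GFP was below both PV:tdT groups in 2047, and mutant PV:tdT was the higher of the PV:tdT groups in 1491 of these. Of the 305 genes that were also 2-fold or more lower than the joined value, it was the higher in 290, so the order was not particular to the called genes. Mutant PV:tdT was also the youngest group, with a mean age of 1 day, against 3 days in TrkC:GFP and 4.33 days in wild-type PV:tdT, and the part of age in that order was not tested. In the 56 genes, wild-type PV:tdT lay a median of 14.5% of the way from the TrkC:GFP to the mutant PV:tdT level in RPKM, with quartiles of 8.30% and 28.2%. The lowest such share was 2.35%, for Gpr39, and the highest 99.6%, for Gabra2. Taken group by group, the authors' deposited tables called 15.1% of the 12877 genes between TrkC:GFP and mutant PV:tdT, 4.19% between TrkC:GFP and wild-type PV:tdT, and 24.6% between mutant and wild-type PV:tdT, with 12.4% higher in the mutant. Those comparisons share libraries with the joined one, so the order of the groups is given as a description with no test.

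**Figure D3:**
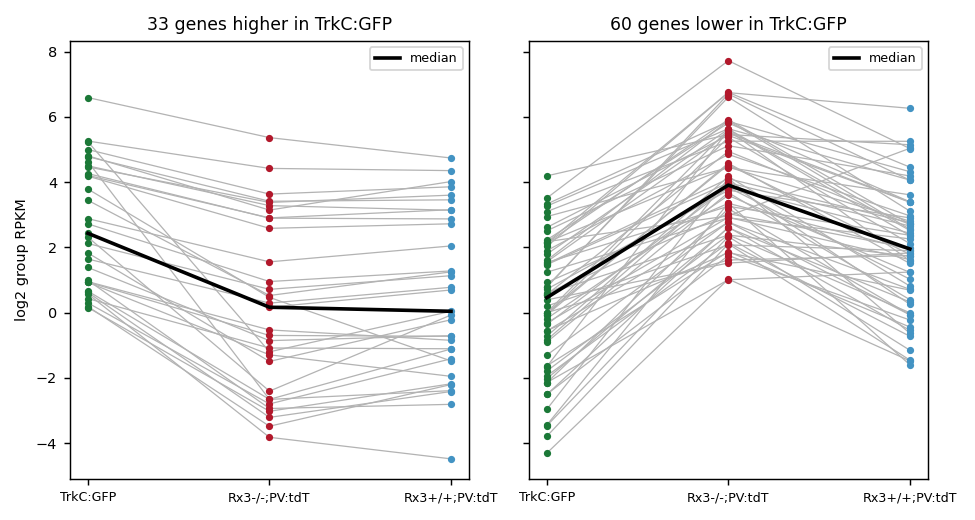
log2 group RPKM of the 33 called genes higher (left) and the 60 called genes lower (right) in TrkC:GFP, 1 line per gene, in TrkC:GFP, Rx3-/-;PV:tdT and Rx3+/+;PV:tdT, with the median in black. On the left both PV:tdT medians are near 1 RPKM, and on the right the median is highest in Rx3-/-;PV:tdT (15 RPKM) and lies at 3.86 RPKM in Rx3+/+;PV:tdT.

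The wild-type PV:tdT libraries were not alike for the lower genes. The library of middle depth was the lowest of the 3 for 51 of the 60 genes (85.0%), against 36.2% of all genes with recovered reads. In TrkC:GFP the shallowest library was the lowest for 37 of the 60 (61.7%), against 30.2% of all genes. All TrkC:GFP libraries lay below all PV:tdT libraries for 50 of the 60 genes, which held for 1.78% of all genes with recovered reads. For the other 10 genes it was that middle wild-type PV:tdT library, and no other PV:tdT library, that overlapped with TrkC:GFP, among them Baiap2l1, Tbx3, Myo1a, Rgs6, Ntrk2, Cdk15, Sema5b, Chl1 and Mical2. Among these, Baiap2l1, a relative of the actin-binding protein IRSp53, was at 9.61 against 49.7 and 16.7 RPKM in TrkC:GFP, mutant PV:tdT and wild-type PV:tdT, the myosin gene Myo1a at 3.46 against 49.2 and 5.73 RPKM, and the G protein regulator Rgs6 at 0.881 against 12.0 and 2.35 RPKM. The kinase gene Cdk15 was at 1.46 against 30.7 and 6.51 RPKM and Mical2, an actin-oxidising enzyme, at 2.36 against 7.48 and 4.79 RPKM.

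Of 12 measured RA-LTMR markers, 3 were called lower and none was called higher in TrkC:GFP, and the list's median log2 ratio was -2.07. Ret and Ntrk2 were among the 3. Ret, the signalling receptor for GDNF family ligands, was at 11.5, 15.7 and 6.83 RPKM in the TrkC:GFP libraries, against 206, 179 and 248 RPKM in the mutant PV:tdT libraries and 41.5, 17.5 and 38.8 RPKM in the wild-type PV:tdT libraries, with a ratio of -3.42 (adjusted p = 0.0020, the authors' deposited table, edgeR). The TrkC:GFP libraries lay below all others and the mutant PV:tdT libraries above all others. Ntrk2, the receptor for BDNF, was at 5.04, 1.36 and 2.68 RPKM in the TrkC:GFP libraries, against 55.9, 74.5 and 45.8 RPKM in the mutant PV:tdT libraries and 8.25, 3.07 and 6.25 RPKM in the wild-type PV:tdT libraries, and the TrkC:GFP and wild-type PV:tdT libraries overlapped (log2 ratio -3.41, adjusted p = 0.027, edgeR, the authors' deposited table). Members that were not called included the transcription factors Maf (5.36 against 31.0 and 5.83 RPKM in TrkC:GFP, mutant PV:tdT and wild-type PV:tdT) and Mafa (0.0942 against 5.06 and 0.226 RPKM) and the Ret co-receptor Gfra2 (35.0 against 109 and 47.2 RPKM). Calb1, Necab2 and Cntnap2 went the other way, with log2 fold changes of 0.87, 0.38 and 0.32 in the authors' deposited table, and the rest of the measured list was lower.

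Among 67 somatosensory transcription factors found, 54 were measured, with ratios from -4.81 to 1.715. Of these, 2 were called lower and none was called higher. They were the T-box factor Tbx3, at 5.46, 3.23 and 4.43 RPKM in the TrkC:GFP libraries, against 69.4, 60.9 and 50.3 RPKM in the mutant PV:tdT libraries and 8.09, 4.23 and 7.35 RPKM in the wild-type PV:tdT libraries, and the homeobox factor Meis1, at 0.319, 0.257 and 0.152 RPKM in the TrkC:GFP libraries, against 4.02, 4.76 and 4.36 RPKM in the mutant PV:tdT libraries and 0.814, 0.474 and 0.483 RPKM in the wild-type PV:tdT libraries. For Tbx3 the TrkC:GFP libraries overlapped with wild-type PV:tdT but not with mutant PV:tdT. Of 18 measured neurotrophic factor receptors, Ntrk2 and Ret fell and Kit rose. Among ligands, Ntf3 (neurotrophin-3, the ligand of TrkC) fell, with 0.687, 0.552 and 0.166 RPKM in the TrkC:GFP libraries, against 14.7, 14.2 and 9.17 RPKM in the mutant PV:tdT libraries and 1.65, 0.691 and 1.45 RPKM in the wild-type PV:tdT libraries, and so did Igf1, with 6.42, 3.44 and 4.14 RPKM in the TrkC:GFP libraries, against 52.4, 46.0 and 69.9 RPKM in the mutant PV:tdT libraries and 12.3, 7.86 and 11.4 RPKM in the wild-type PV:tdT libraries. The neuropeptide gene Calca, which encodes CGRP, was the third of 18 measured peptides and growth factors to fall, with 2.25, 1.72 and 1.04 RPKM in the TrkC:GFP libraries, against 99.1, 4.14 and 188 RPKM in the mutant PV:tdT libraries and 11.3, 7.30 and 7.08 RPKM in the wild-type PV:tdT libraries. Its mutant PV:tdT libraries spanned 4.14 to 188 RPKM, and its ratio of -4.93 was -4.12 without the shallowest of them.

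Of 46 measured G protein-coupled receptors, 4 fell: F2r, F2rl2, the kappa opioid receptor Oprk1 (0.0504 against 2.04 and 0.358 RPKM in TrkC:GFP, mutant PV:tdT and wild-type PV:tdT) and the muscarinic receptor Chrm2 (10 against 58.0 and 19.9 RPKM). Of 37 measured ionotropic receptor subunits, 2 fell. Gabra2, a GABA-A receptor subunit, was at 8.25, 10.8 and 6.48 RPKM in the TrkC:GFP libraries, against 30.2, 19.2 and 65.0 RPKM in the mutant PV:tdT libraries and 38.6, 34.8 and 40.7 RPKM in the wild-type PV:tdT libraries, and the PV:tdT groups overlapped each other (ratio -2.16, adjusted p = 4.9e-06, edgeR, the authors' deposited table). Chrnb3, a nicotinic receptor subunit, was at 0.289 against 5.2 and 0.996 RPKM. The zinc receptor gene Gpr39 (0.0918 against 10.2 and 0.330 RPKM), the calcium-activated chloride channel gene Ano2 (0.0902 against 5.02 and 0.449 RPKM) and Lypd1 (0.128 against 17.4 and 0.644 RPKM), a membrane-anchored binding partner of nicotinic receptors, had some of the largest ratios, at -5.85, -4.92 and -6.14. The ratio of Gpr39 was -5.24 without the mutant PV:tdT library of middle depth, and that of Lypd1 was -6.90 without the deepest TrkC:GFP library. None of 17 measured sodium and HCN channel genes, 17 calcium channel genes and 15 mechanotransduction candidates was called.

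Guidance and adhesion genes that fell were Ntng1 (netrin-G1), at 1.02, 1.48 and 0.453 RPKM in the TrkC:GFP libraries, against 50.3, 49.8 and 46.4 RPKM in the mutant PV:tdT libraries and 6.96, 2.60 and 5.79 RPKM in the wild-type PV:tdT libraries, and Sema5b, at 0.676 against 6.82 and 1.64 RPKM in TrkC:GFP, mutant PV:tdT and wild-type PV:tdT. They were the 2 of 58 measured guidance genes called lower, and none was called higher. Of 53 measured contactins, neurexins and other adhesion genes, Layn, Chodl and Chl1 were called lower and none was called higher. Chl1, a cell adhesion molecule of the L1 family, was at 2.68, 6.68 and 1.80 RPKM in the TrkC:GFP libraries, against 17.5, 22.8 and 46.1 RPKM in the mutant PV:tdT libraries and 8.90, 5.50 and 8.98 RPKM in the wild-type PV:tdT libraries, with a ratio of -2.29, or -3.02 without the TrkC:GFP library of middle depth. Mstn (myostatin) and Fst (follistatin, which binds activins and myostatin) both fell, with 0.245 against 6.05 and 1.3 RPKM and 0.559 against 15.9 and 1.19 RPKM. H60b, which encodes a ligand of the immune receptor NKG2D, had the lowest ratio, -6.33, at 0.430, 0.20 and 0 RPKM in the TrkC:GFP libraries, against 64.7, 31.7 and 47.6 RPKM in the mutant PV:tdT libraries and 3.83, 1.12 and 3.82 RPKM in the wild-type PV:tdT libraries. H60b belongs to a family of near-identical genes, so its reads could have been split. Fam169b, at 0.0721 against 4.30 and 0.364 RPKM, had a ratio of -5.01, or -4.32 without the shallowest mutant PV:tdT library.

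In 4 of the 60 genes wild-type PV:tdT was at or above mutant PV:tdT: Ift27, Slc7a11, Sox2ot and Me3. Slc7a11, the cystine and glutamate exchanger of the membrane, was at 0.226, 0.346 and 0.0800 RPKM in the TrkC:GFP libraries, against 2.08, 2.28 and 1.64 RPKM in the mutant PV:tdT libraries and 2.30, 2.49 and 2.28 RPKM in the wild-type PV:tdT libraries (ratio -3.27, adjusted p = 5.9e-12, edgeR, the authors' deposited table). The 6 PV:tdT libraries lay within 1.64 to 2.49 RPKM, all above TrkC:GFP. Sox2ot, a long noncoding RNA gene that spans Sox2, was at 1.00 against 3.05 and 3.36 RPKM in TrkC:GFP, mutant PV:tdT and wild-type PV:tdT, and Me3, a mitochondrial malic enzyme, at 1.31 against 2.87 and 3.55 RPKM. Tuba1c, an alpha-tubulin, had the smallest p of the lower genes, 1.0e-35 after adjustment (edgeR, the authors' deposited table), and was at 4.39, 4.03 and 3.64 RPKM in the TrkC:GFP libraries, against 136, 83.3 and 101 RPKM in the mutant PV:tdT libraries and 88.8, 64.5 and 76.6 RPKM in the wild-type PV:tdT libraries. Reads may be shared with near-identical alpha-tubulin genes, and none of the other 32 measured neurofilament, tubulin and axon growth genes was called. Other genes with the smallest p-values were Gcnt4, a glycosyltransferase (1.64 against 13.4 and 7.48 RPKM in TrkC:GFP, mutant PV:tdT and wild-type PV:tdT), the serine protease inhibitor Serpina3n (5.68 against 34.6 and 18.2 RPKM), the annexin Anxa4 (0.803 against 7.56 and 3.08 RPKM) and the phosphodiesterase Pde1c (1.51 against 8.18 and 3.92 RPKM).

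Other called genes fall outside the rule for naming and are given here in TrkC:GFP, mutant PV:tdT and wild-type PV:tdT. Higher genes included Rhoc (18.4 against 7.47 and 8.89 RPKM), a small GTPase, Palld (1.35 against 0.471 and 0.464 RPKM), the actin scaffold palladin, and Lrrc16a (22.1 against 10.4 and 12.1 RPKM), which binds actin capping protein. The phosphatase Acp1 (27.4 against 10.6 and 11 RPKM), the tetraspanin Tspan8 (19.2 against 7.43 and 7.31 RPKM), the zinc finger gene Zkscan3 (4.34 against 1.64 and 2.19 RPKM), the chromatin gene Msl3 (27.9 against 8.83 and 16.2 RPKM) and 2410127L17Rik (1.93 against 0.692 and 0.555 RPKM) were also higher. In each of these 8 except Msl3, the mutant and wild-type PV:tdT values were closer to each other than to TrkC:GFP on the log2 scale. Among lower genes, Itga9 (1.49 against 5.19 and 3.31 RPKM) encodes an integrin, Ptprd (7.68 against 21.8 and 12.2 RPKM) a receptor tyrosine phosphatase of synapses, Ptgir (0.225 against 9.08 and 0.957 RPKM) the prostacyclin receptor and Prokr2 (0.323 against 3.65 and 0.736 RPKM) a prokineticin receptor. Those for secreted or metabolic proteins were the transferrin gene Trf (2.82 against 17.2 and 6.74 RPKM), the complement C1 inhibitor Serping1 (2.77 against 15.7 and 6.30 RPKM), the carbonic anhydrase Car3 (0.955 against 41.3 and 4.33 RPKM) and the monoacylglycerol lipase Mgll (1.90 against 10.2 and 3.80 RPKM). Membrane trafficking genes were Sorl1 (2.89 against 9.56 and 5.17 RPKM), Sytl5 (0.176 against 3.35 and 0.854 RPKM), the copine Cpne8 (6.10 against 43.2 and 10.4 RPKM), Bet3l (1.44 against 14.3 and 5.41 RPKM) and the phospholipid-transporting ATPase Atp10d (1.15 against 4.21 and 3.72 RPKM). LOC433944 (0.955 against 23.9 and 2.84 RPKM), 3110047P20Rik (0.405 against 6.84 and 0.953 RPKM), Gm16551 (18.2 against 43.9 and 35.3 RPKM) and A830018L16Rik (4.46 against 22.0 and 6.97 RPKM) are named by their table symbols only. Raet1e, a relative of H60b, had no reads in TrkC:GFP and 103 in the PV:tdT libraries. A floor of 3 reads over TrkC:GFP was 15.7-fold below these pooled PV:tdT reads, scaled by library size and without the spread between libraries.

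Single libraries also decided some of the lower values. Without the TrkC:GFP library of middle depth the log2 ratio was -5.53 in place of -4.58 for Car3, -4.09 in place of -3.03 for Rgs6 and -2.00 in place of -1.38 for Mical2. Without the deepest TrkC:GFP library it was -4.93 in place of -3.58 for Sytl5. Without the shallowest mutant PV:tdT library it was -3.26 in place of -4.48 for Ptgir and -2.39 in place of -3.27 for 3110047P20Rik. Without the 2 deeper mutant PV:tdT libraries Fst stood at -2.94 in place of -3.93, Bet3l at -3.45 in place of -2.77, Rmst at 3.17 in place of 3.86 and Ano2 at -4.32 in place of -4.92.

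The genes that define the groups were not among the calls. Ntrk3 was at 150.4, 142 and 129.9 RPKM in the TrkC:GFP libraries, against 17.4, 16.4 and 42.3 RPKM in the mutant PV:tdT libraries and 85.4, 89.2 and 70.2 RPKM in the wild-type PV:tdT libraries, with a ratio of 1.39 and an adjusted p of 0.12 in the authors' deposited table (edgeR). Pvalb was at 312, 401 and 346 RPKM in the TrkC:GFP libraries, against 93.4, 70.0 and 37.1 RPKM in the mutant PV:tdT libraries and 183, 228 and 189.6 RPKM in the wild-type PV:tdT libraries, a ratio of 1.40 and an adjusted p of 0.068 (edgeR, the authors' deposited table). For both genes all TrkC:GFP libraries were above all others, although Pvalb marks the PV:tdT lines. Runx3, given above, had a ratio of 0.62 and an adjusted p of 0.80 (edgeR, the authors' deposited table). The median over all genes was 0.07. Of 13 measured proprioceptor markers none was called, and their median ratio was 0.62. On the log2 scale the wild-type PV:tdT value was nearer to TrkC:GFP than to mutant PV:tdT for 12 of the 13, all but Gabrg1 at 8.44 against 18.1 and 17.1 RPKM in TrkC:GFP, mutant PV:tdT and wild-type PV:tdT. In linear RPKM it was so for 10, with Pvalb and Ntrk3 the further exceptions. The 12 include Fxyd7 and Pou4f3, which were lower in wild-type than in mutant PV:tdT, while the rest of the 12 were higher. The share over all genes was not counted. Of all genes, 4.19% were called between TrkC:GFP and wild-type PV:tdT and 24.6% between the PV:tdT groups, so nothing is read from these counts. Examples of such nearness, chosen after their values were seen, are Whrn, Esrrg and Chad. Whrn was at 6.84 against 0.114 and 6.37 RPKM, Esrrg at 67.8 against 5.25 and 72.3 RPKM and Chad at 3.63 against 0.0770 and 3.60 RPKM. These group values include the 1 read added per library, which weighs on the mutant PV:tdT value of Chad.

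**Figure D4:**
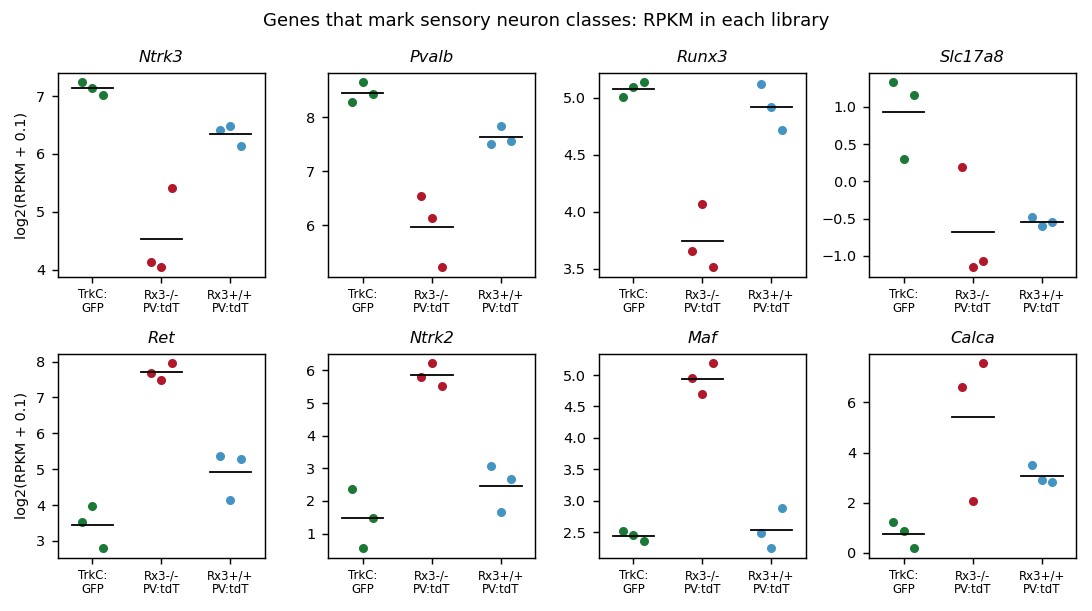
log2(RPKM + 0.1) of genes that mark sensory neuron classes in each library (points) with the mean of the log values (bars). Ntrk3, Pvalb and Slc17a8 are highest in every TrkC:GFP library, and Ret is lowest there, while 1 Rx3+/+;PV:tdT library overlaps with TrkC:GFP for Ntrk2.

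**Figure D5:**
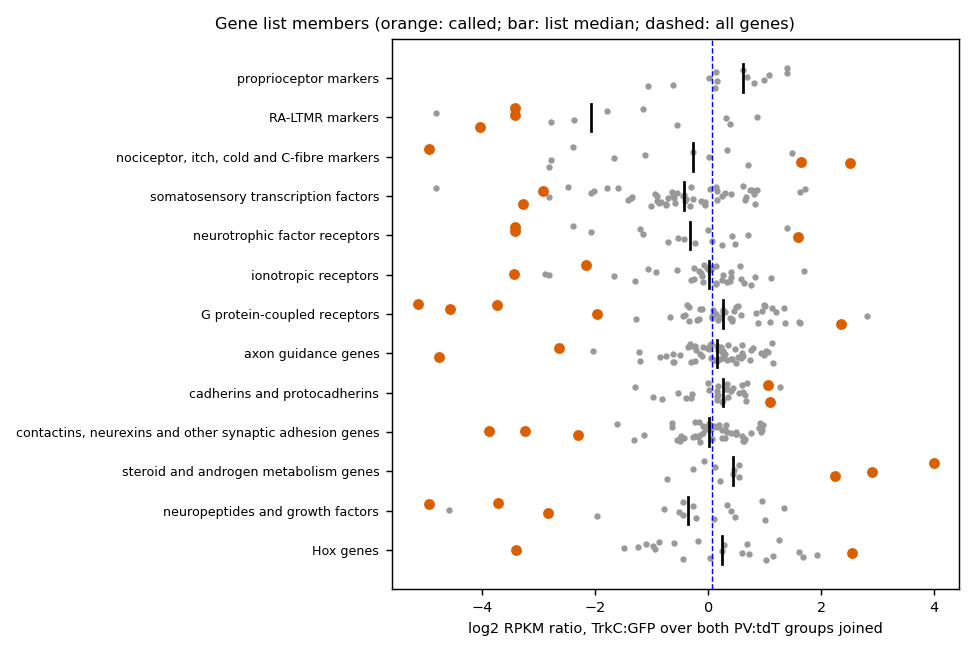
log2 RPKM ratio of TrkC:GFP over both PV:tdT groups joined for the measured members of 13 gene lists, 1 point per gene, with called genes in orange, list medians as bars and the median of all genes (0.07) dashed. Of the lists drawn, RA-LTMR markers have the lowest median (-2.07), and 3 of the 12 steroid genes are called.

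Lists without a call were those of 49 measured Wnt, FGF and heparan sulfate genes (median log2 ratio 0.07), 19 calcium-binding proteins (-0.04), 18 immediate early, injury and stress genes (0.32) and 7 cell cycle genes (-0.24). No marker was called among 12 measured glial, 3 endothelial and mural, 4 fibroblast and meningeal, 2 immune, 2 erythroid and 4 kidney and adrenal genes, whose list medians lay between -1.44 for kidney and adrenal genes and 0.40 for immune genes. Among lists with calls, the median was -2.21 for the 4 thrombin and protease-activated receptor genes, 0.25 for Hox genes, 0.26 for cadherins, 0.16 for guidance genes, 0.02 for adhesion genes, -0.14 for neurofilament, tubulin and axon growth genes and 0.01 for vesicle release genes. It was -0.44 for transcription factors, -0.33 for neurotrophic factor receptors, 0.01 for ionotropic receptors, 0.27 for G protein-coupled receptors and -0.36 for peptides and growth factors.

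The count of calls depended on how the PV:tdT groups entered the test. limma on the recovered reads, with the 6 PV:tdT libraries as 1 level as in the authors' contrast, called 7 genes higher and 3 lower (0.0784% of 12762). With the PV:tdT groups as separate levels and TrkC:GFP set against the mean of their log values, limma called 470 higher (3.68%) and 250 lower (1.96%), 5.64% in all, but TrkC:GFP lay between the PV:tdT groups for 109 of the 470 and for 20 of the 250. Scaled by median ratios in place of total reads, that fit called 343 higher and 359 lower, so that the higher share was 48.9% and not 65.3%. Of the 93 genes called above, 27 of the 33 higher and 56 of the 60 lower ones had an adjusted p under 0.05 in the limma fit with separate levels, but 5 and 2 in the fit with 1 PV:tdT level. In the fit with separate levels the log2 difference was 3.06 ± 0.35 (SE, n = 3 libraries in each group) for Myh8, 3.51 ± 0.33 for Srd5a2, -4.31 ± 0.52 for F2r and -3.38 ± 0.24 for Layn (limma, adjusted p = 0.0051, 0.0030, 0.0059 and 0.0015 in that order). With 1 PV:tdT level the adjusted p (limma) was 0.044 for Myh8 and Srd5a2 and 0.24 for F2r and Layn. With separate levels, the 10 genes that missed the threshold were Ptgds, F630111L10Rik, Acp1, Kit, Tspan8 and Slc17a8 among the higher and Calca, Ptgir, Fam169b and 3110047P20Rik among the lower, with an adjusted p (limma) of 0.16 for Kit, 0.0501 for Slc17a8 and 0.13 for Calca.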

How the data were processed

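The values came from the comparison table of 23038 genes that the authors made with edgeR after mapping to mm10, per the submitters' processing notes. The labels name no aligner or counting program, and no version or kind of the authors' edgeR test. It holds log2 fold changes, p-values with their Benjamini-Hochberg adjustment over all 23038 genes (checked by recomputation), 1 RPKM value per gene and group, and a flag (score of -1, 0 or 1, rule not stated), as the authors deposited them. The log2 RPKM ratio was computed from these RPKM values. The PV:tdT group values were taken from another of the deposited tables, and the joined column equals their mean.

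Each deposited RPKM was the mean over 3 libraries of reads plus 1, per exon length and library size, written to 15 significant digits. The whole reads per library that give those digits were recovered with Python 3.11.15 and numpy 2.4.6, where 1 solution existed, for 22923 genes (99.5%). The tolerance was set after the residuals were seen. In simulated tables with known answers, 2854 of 2880 genes had 1 solution, and all of these were right. Reads for a test of the fits were simulated with equal means in the PV:tdT groups, unlike the data. With 1 PV:tdT level, limma found 6% of 2-fold and 57% of 4-fold changes, and with separate levels 2% and 33%. False calls numbered 4 and 1 in that order. RPKM per library is given without the added read. Group RPKM includes it, so the lowest group values, such as those of Chad and Sult2b1 in mutant PV:tdT, are in part added reads. limma 3.58.1 (R 4.3.3) was fitted to log2(CPM + 0.5) of the recovered reads of 12762 genes. No value here comes from a count model. edgeR's exact test was tried once on the recovered reads to check the recovery and is not reported. The 115 measured genes without a solution had no values per library.

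Gene names are those of the tables, and coordinates are those of RefSeq GRCm38.p6, the same primary assembly as mm10. The genes named are, in each direction, the 12 with the smallest p, the 10 farthest outside both PV:tdT groups, up to 4 per list and the 5 with the largest ratio between the PV:tdT groups, with the 4 markers and the 3 genes that define the groups. A few others are named beside these and were chosen after their values were seen. Results on some genes are not reported here. The members, gene lists and tests were chosen with earlier results of these data known. Reads were amplified without molecular identifiers, so floors cover counting error only.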

Additional observations from a re-analysis of the deposited data

How the results depend on the processing

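The counts of called genes moved with the threshold. They were 15 higher and 29 lower at an adjusted p under 0.01, 11 and 16 with a Bonferroni limit, and 15 and 28 by the flag of the deposited table, while a minimum log2 fold change of 1, p re-adjusted over the genes of RPKM 1 or more and the absence of a filter on low values kept them within 1.5 times of 33 and 60. The alternatives with limma were chosen after the data were seen. limma with 2 levels gave 7 higher and 3 lower, and with 3 levels 470 and 250. Within the 2-level fit, median-ratio scaling gave 1 higher, a pseudocount of 0.1 CPM gave 3 higher, and leaving out the 2 deeper Rx3-/-;PV:tdT libraries gave 2 higher and 1 lower. Leaving out 1 library at a time gave 0 to 9 higher and 1 to 6 lower with 2 levels, and 151 to 633 higher and 76 to 301 lower with 3 levels. Genes past 2-fold numbered 417 higher and 419 lower, and became 114 and 183 with a minimum of 5 RPKM and 112 and 228 with a pseudocount of 1 RPKM. The cause of these shifts was not tested beyond the smaller numbers of genes or samples that the settings keep.

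Of the 59 genes named by rule, 9 were called in the joined comparison but not against Rx3+/+;PV:tdT alone, and none reversed against either PV:tdT group. TrkC:GFP lay outside both PV:tdT group values in every called gene, so nothing is read from the lack of reversals. No paired analysis was possible because the recovered libraries carry no replicate numbers. No result of a count model on the recovered reads is reported, and DESeq2 was not run. Depth limits genes with few reads, such as Myh8 in the PV:tdT groups (5 to 30 reads per library).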
